A study of Mus musculus with 5 samples.

Results

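Fatty acid uptake, storage and oxidation genes were followed in ribosome-bound mRNA of soleus myocytes. The list held 55 genes, and a gene was measured where the array annotation gave its symbol as the single symbol of a probe set. This applied to 50 of the 55, out of 19505 genes on the arrays. *Acsl1*, *Acsl3*, *Etfb*, *Scd2* and *Srebf1* had no probe set under those symbols in the annotation used and were not analysed here. The 50 genes fall into 12 roles, from uptake at the cell surface to the lipid droplet and the mitochondrial matrix.

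RNA came from the left soleus of 5 sedentary mice that carried Myogenin-Cre and the RiboTag-Rpl22fl/fl-HA allele, numbered 1, 3, 11, 14 and 16, with 1 array per mouse. Myogenin-Cre switches on an HA-tagged RPL22 ribosomal protein in cells that have expressed myogenin, and their ribosomes, with the mRNA they carry, are then recovered with antibody to HA. All 5 mice carried the same alleles and no treatment, the labels give neither age nor sex, and the Methods state sexually mature male mice and a harvest in the early afternoon after a short fast, unless stated otherwise. No second condition, input RNA or control tissue was analysed here, so genes were compared with background genes of the same arrays and mice with each other.

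Soleus is an oxidative muscle that takes up circulating fatty acids released by lipoprotein lipase, binds them in the cytosol, activates them to acyl-CoA and either esterifies them to triglyceride or passes them to mitochondria. The carnitine shuttle carries long-chain acyl groups across the mitochondrial membranes, and malonyl-CoA restrains its first enzyme. Stored triglyceride is hydrolysed at the droplet surface by adipose triglyceride lipase (ATGL, the product of *Pnpla2*), which coat proteins, a coactivator and an inhibitor control. In the matrix, the β-oxidation spiral shortens the chain in repeated rounds and hands electrons to the electron transfer flavoprotein.

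Values are log2 signals as the authors deposited them, so a difference of 1 is a doubling, and values in 5 mice are always given in the order mouse 1, 3, 11, 14 and 16. The affinity of the probes also enters a signal, so levels of different genes were not ranked as amounts of transcript. Array medians lay between 5.11 and 5.20. The background cutoff, the 95th percentile of 1091 odorant receptor genes on each array, lay between 5.25 and 5.32. Of the fiber markers, all 9 of slow and all 10 of fast fibers were above background, as were 7 of 11 endothelial, 6 of 7 fibroblast, 5 of 11 adipocyte, 5 of 8 smooth muscle and pericyte, 2 of 6 satellite cell, 1 of 7 immune and 1 of 3 Schwann cell markers. Over all 19505 genes, 43.5% were above background. Endothelial (63.6%), fibroblast (85.7%) and smooth muscle and pericyte markers (62.5%) lay over that share. Adipocyte markers (45.5%) lay near it, and satellite cell (33.3%), Schwann cell (33.3%) and immune markers (14.3%) under it. Y-linked *Eif2s3y* read 3.54, 10.42, 11.92, 12.73 and 3.53, so mice 1 and 16 read within the range of background where the Methods' default is male mice. *Myog* had 7.09, 6.13, 7.15, 7.17 and 8.09 and *Rpl22* 12.36, 11.71, 11.94, 11.65 and 12.93, both highest in mouse 16.

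Most of the fatty acid program was read far above background. A gene was called when it lay above the array's cutoff, on average over mice, with limma giving an adjusted p under 0.05 (one-sample fit, two-sided, Benjamini-Hochberg over all 19505 genes). Of the 50 members, 44 were called (88.0%), against 8482 of all 19505 genes (43.5%). The same 44 lay above the cutoff in all 5 mice, which 42.5% of all genes did. The median signal of the 50 members was 13.05, against 5.16 over all genes, and 21 members had a mean signal of at least 14, where 2.97% of all genes did. Over mice 3, 11 and 14 alone, a choice made after the Y-linked signals had been seen, 43 members were called. The members not called were *Fabp5*, *Acsl5*, *Cpt1c*, *Plin1*, *Dgat1* and *Lpin2*. Among called members, the adjusted p from limma ran between 3.46e-15 for *Fabp3* and 4.92e-06 for *Acsl6*, with *Fasn* alone near the threshold at 0.0409.

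**Figure D1:**
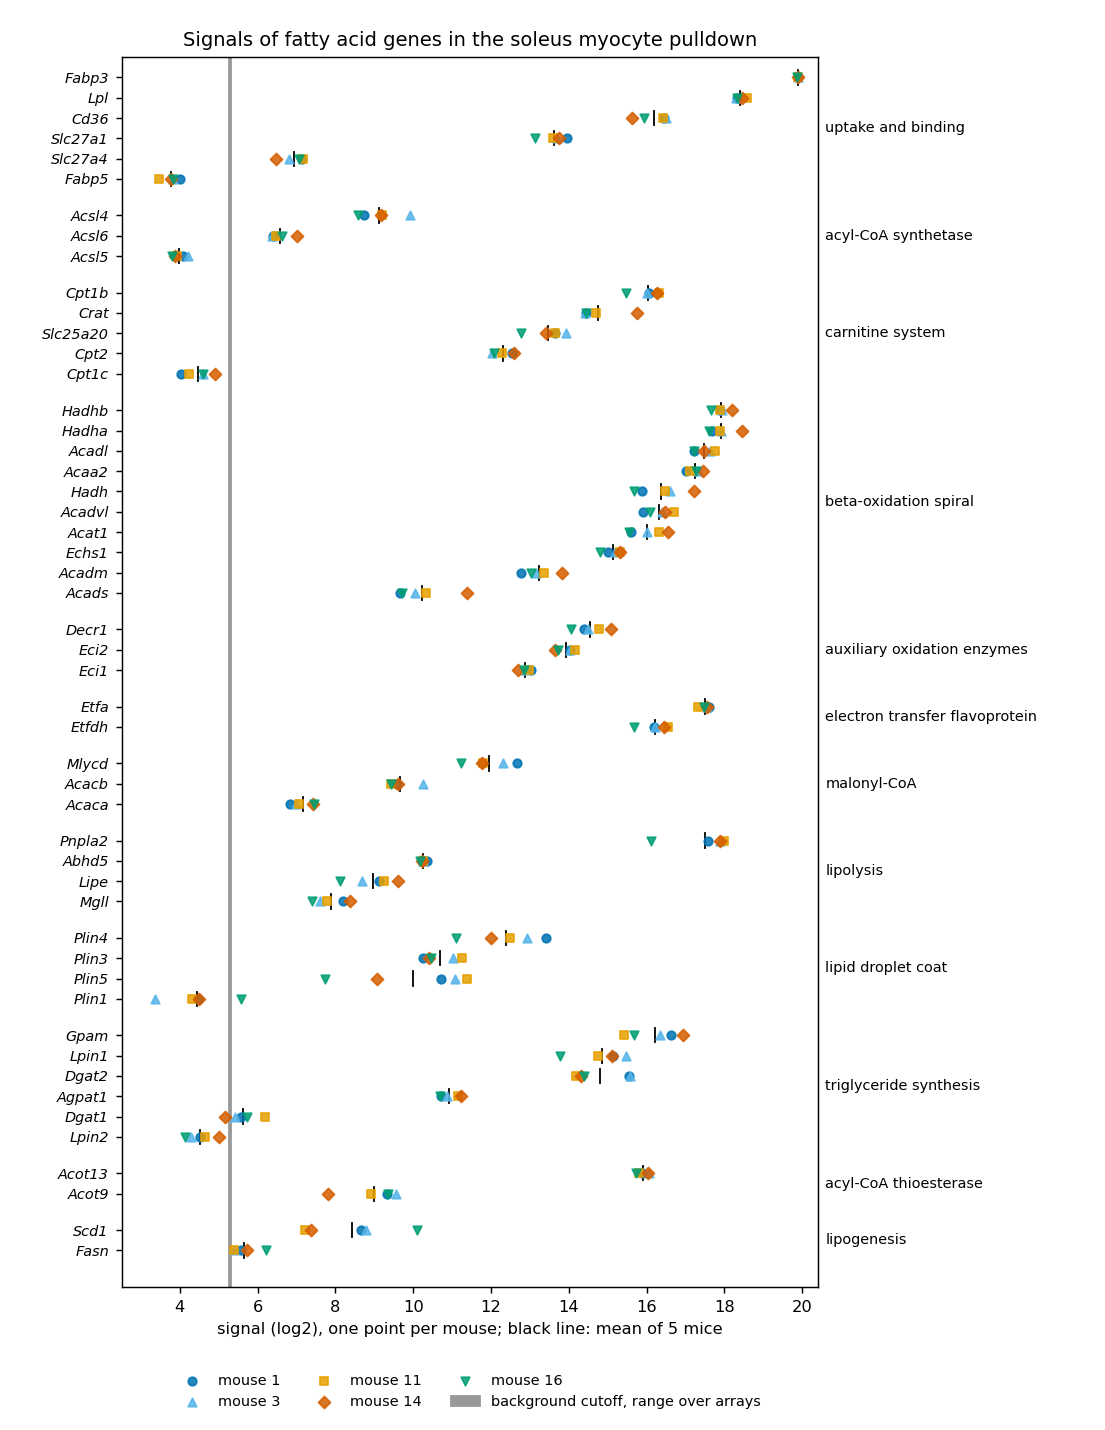
Signal (log2, horizontal axis) of each of the 50 measured fatty acid genes, grouped by role, with 1 point per mouse, a black line at the mean of 5 mice and a grey band for the background cutoff (5.25 to 5.32). Of the 50 genes, 44 lie to the right of the band in every mouse, and *Fabp5*, *Acsl5*, *Cpt1c* and *Lpin2* lie to its left in every mouse.

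Of the uptake and cytosolic binding genes, 5 of 6 were called. *Fabp3*, the heart and muscle fatty acid binding protein, read 19.89, 19.89, 19.90, 19.89 and 19.86. All 5 values lay within 0.1 of the highest signal on their array, so differences between mice were bounded from above there. *Lpl*, which encodes lipoprotein lipase, had 18.32, 18.30, 18.58, 18.44 and 18.31, and its mice lay within 0.28 of each other. Its SD of 0.12 (n = 5) was larger than that of 2.79% of called genes, and without mouse 11 it was 0.066. *Cd36*, the fatty acid translocase of the sarcolemma, read 16.44, 16.50, 16.43, 15.64 and 15.93, with mice 14 and 16 below the other 3. The fatty acid transport proteins were both called, with *Slc27a1* (FATP1) at 13.63 ± 0.31 and *Slc27a4* (FATP4) at 6.93 ± 0.30 (SD, n = 5 each), SDs that were 0.15 without mouse 16 and 0.17 without mouse 14, in that order of genes. *Fabp5*, the epidermal type binding protein that capillary endothelium also expresses, read 4.005, 3.83, 3.47, 3.76 and 3.81, under the cutoff in all 5 mice, with a mean distance of -1.502 (limma adjusted p = 7.64e-07, standard error 0.14). Because 95% of the odorant receptor genes on an array lie under its cutoff, such a p is no evidence that the transcript is missing.

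Of the acyl-CoA synthetases, which activate fatty acids, 3 of 5 listed genes had a probe set and 2 were called. *Acsl4*, an isoform that prefers arachidonic acid, read 8.73, 9.92, 9.20, 9.17 and 8.57, with mouse 3 highest, and its SD of 0.53 was 0.32 without mouse 3. *Acsl6*, best known from brain, had 6.40, 6.36, 6.48, 7.01 and 6.62, highest in mouse 14, and lay 1.30 over the cutoff (limma adjusted p = 4.92e-06, standard error 0.15). *Acsl5*, of intestine and liver, read 4.09, 4.20, 3.93, 3.88 and 3.79 and stayed below the cutoff in every mouse.

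In the carnitine system, the muscle isoform of the entry enzyme was called and the brain isoform was not. *Cpt1b*, carnitine palmitoyltransferase of the outer membrane in muscle, read 16.06, 16.01, 16.33, 16.28 and 15.47, lowest in mouse 16. *Cpt1c*, its neuronal relative of the endoplasmic reticulum, read 4.04, 4.59, 4.23, 4.91 and 4.60, with all 5 mice under the cutoff and a mean distance of -0.80 (limma adjusted p = 0.000543, standard error 0.16). The liver isoform gene *Cpt1a*, outside the 55 genes and named after its values had been seen, read 5.90, 5.66, 5.23, 5.24 and 4.94 and was not called (limma adjusted p = 0.507). Further in, *Slc25a20*, the carnitine-acylcarnitine carrier, read 13.63, 13.94, 13.63, 13.41 and 12.76, again lowest in mouse 16, and *Cpt2*, the inner membrane transferase, had 12.31 ± 0.25 (SD, n = 5). *Crat*, carnitine acetyltransferase, which makes acetylcarnitine from surplus acetyl-CoA, read 14.43, 14.43, 14.70, 15.75 and 14.44. Mouse 14 stood apart, 1.05 above the next mouse, while the other 4 lay within 0.27 of each other, and the SD of 0.57 was 0.13 without mouse 14.

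All 10 genes of the β-oxidation spiral were called, with a median signal of 16.35. The trifunctional protein, which carries out the later steps for long chains, is encoded by *Hadha* with 17.69, 17.90, 17.89, 18.44 and 17.59 and *Hadhb* with 17.88, 17.94, 17.88, 18.20 and 17.66. Both subunits were highest in mouse 14 and lowest in mouse 16. *Acadl*, the long-chain acyl-CoA dehydrogenase, read 17.22, 17.64, 17.77, 17.48 and 17.21, and *Acadvl*, the very long-chain enzyme, had 16.32 ± 0.31 (SD, n = 5). *Hadha*, *Hadhb* and *Acadm* had SDs of 0.15, 0.12 and 0.25 without mouse 14. The largest SDs of the spiral over the 5 mice were those of a pair of short-chain enzymes. *Acads*, the short-chain dehydrogenase, read 9.65, 10.04, 10.32, 11.37 and 9.71, and *Hadh*, the short-chain hydroxyacyl-CoA dehydrogenase, read 15.89, 16.60, 16.47, 17.22 and 15.68. Mice 1 and 16, in which Y-linked *Eif2s3y* read within the range of background, were lowest in both genes, and mouse 14 was highest. Their ranges were 1.72 and 1.54 log2 units, or 3.29-fold and 2.91-fold, and the SD of *Acads*, 0.70, was 0.31 without mouse 14, below the 0.36 of *Acat1* and 0.35 of *Acadvl* in the same 4 mice. Without mouse 14 the ranges were 0.66 for *Acads* and 0.92 for *Hadh*. *Acadm*, the medium-chain dehydrogenase, had 13.23 ± 0.39, and *Acat1*, the acetoacetyl-CoA thiolase, 16.01 ± 0.44 (SD, n = 5 each). *Acaa2*, the 3-ketoacyl-CoA thiolase, had 17.24 ± 0.17 and *Echs1*, the enoyl-CoA hydratase, 15.12 ± 0.23 (SD, n = 5 each).

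*Hadha* and *Hadhb* lie head to head, and their promoter windows overlap. In RefSeq's promoter windows (250 bases before to 50 after a start, build GRCm38.p6), their starts are 273 bases apart on opposite strands of chromosome 5 and the windows share 228 bases. Neither window holds the start of the other gene. The *Hadhb* window, chr5:30155003-30155302 on the plus strand, is shown because both subunits follow the same order of highest and lowest mouse. It holds no AGGTCA, the half-site that PPAR, ERR and other nuclear receptors bind, on either strand, which says only that these letters are not in this window.
Hadhb: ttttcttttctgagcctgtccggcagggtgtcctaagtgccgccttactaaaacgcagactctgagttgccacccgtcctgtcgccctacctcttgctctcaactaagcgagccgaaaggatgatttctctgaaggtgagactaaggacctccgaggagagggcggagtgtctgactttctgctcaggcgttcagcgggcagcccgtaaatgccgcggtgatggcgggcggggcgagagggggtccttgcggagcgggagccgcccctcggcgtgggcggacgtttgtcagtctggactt

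The auxiliary enzymes of unsaturated chains were all called. *Decr1*, the dienoyl-CoA reductase, read 14.39, 14.49, 14.78, 15.08 and 14.05, highest in mouse 14 and lowest in mouse 16. *Eci2*, an enoyl-CoA isomerase of mitochondria and peroxisomes, had 14.02, 14.03, 14.17, 13.64 and 13.73 and *Eci1*, the isomerase of mitochondria, 13.02, 12.86, 12.98, 12.69 and 12.84, both lowest in mouse 14. *Decr1* thus had its highest and lowest mouse in common with *Hadh*, and the isomerase genes did not. Electrons leave the dehydrogenases through the electron transfer flavoprotein, whose α subunit gene *Etfa* read 17.60, 17.54, 17.32, 17.56 and 17.48. The SD of *Etfa* (its mice spanned 0.28) was larger than that of 2.13% of called genes, and 0.049 without mouse 11. *Etfdh*, the ubiquinone oxidoreductase that accepts these electrons, read 16.19, 16.21, 16.56, 16.45 and 15.67, lowest in mouse 16.

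Malonyl-CoA, the brake on CPT1, is made by acetyl-CoA carboxylases and removed by malonyl-CoA decarboxylase, and all 3 genes were called. *Mlycd*, the decarboxylase, read 12.67, 12.30, 11.80, 11.77 and 11.22, with a range of 1.45 log2 units between mouse 1 and mouse 16, or 0.91 without mouse 16. *Acacb*, the carboxylase at the mitochondrial surface, read 9.57, 10.24, 9.43, 9.61 and 9.42, with mouse 3 apart from the other 4 and an SD of 0.096 without it. *Acaca*, the cytosolic carboxylase of lipogenesis, had 6.82, 6.996, 7.08, 7.43 and 7.44, highest in mice 14 and 16.

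Lipolysis genes were all called, and mouse 16 had the lowest signal in each of the 4. *Pnpla2*, which encodes ATGL, read 17.58, 17.89, 17.996, 17.88 and 16.11. The first 4 mice lay within 0.42 of each other and mouse 16 lay 1.47 below the lowest of them, a 3.7-fold range in all. The SD of *Pnpla2*, 0.79, was larger than that of 94.6% of called genes, and 0.18 without mouse 16. *Abhd5* (CGI-58), the coactivator of ATGL, read 10.36, 10.26, 10.26, 10.23 and 10.16. Its SD of 0.07 was larger than that of only 0.66% of called genes, and 0.046 without mouse 1. Over the 5 mice the lipase and its coactivator thus lay near opposite ends of the spread of called genes. For *Pnpla2* this rested on mouse 16, without which the SDs were 0.18 for *Pnpla2* and 0.058 for *Abhd5*. *Lipe*, hormone-sensitive lipase, had 9.12, 8.69, 9.24, 9.62 and 8.13, and *Mgll*, the monoglyceride lipase that completes hydrolysis, 7.88 ± 0.41 (SD, n = 5). *G0s2*, the inhibitor of ATGL and no member of the list, read 12.08, 12.37, 8.31, 10.46 and 13.06. Mouse 16 was the highest there, where it was the lowest for *Pnpla2*, and mouse 11 the lowest, where it was the highest for *Pnpla2*, which is a description of 5 mice.

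Among lipid droplet coat genes, 3 of 4 were called, and the family held the largest spread of all called members. *Plin5*, the perilipin of oxidative tissues that tethers droplets to mitochondria and binds ATGL, read 10.71, 11.07, 11.38, 9.06 and 7.73. Mice 1, 3 and 11 lay within 0.68 of each other, mouse 14 lay below them and mouse 16 lowest. The range was 3.66 log2 units, or 12.6-fold between mouse 11 and mouse 16 (5.01-fold without mouse 16), and the SD of 1.55 exceeded that of 99.7% of called genes. Without mouse 16 it was 1.03, and over mice 3, 11 and 14 alone it was 1.26. *Plin4*, which coats small droplets in muscle and fat, read 13.42, 12.94, 12.50, 11.99 and 11.11, a range of 2.31, highest in mouse 1 and lowest in mouse 16, or 1.43 without mouse 16. Its SD of 0.89 was 0.47 over mice 3, 11 and 14 alone. *Plin3*, the widely expressed perilipin, had 10.26, 11.02, 11.26, 10.40 and 10.45, with a range of 1.003. *Plin1*, the adipocyte perilipin, read 4.48, 3.37, 4.31, 4.49 and 5.56, above the cutoff in mouse 16 only, at a mean distance of -0.83 (limma adjusted p = 0.00725, standard error 0.25). *Plin2*, a further perilipin outside the 55 genes that was named after its values had been seen, read 11.01, 11.11, 9.92, 9.93 and 9.86, with mice 1 and 3 above the other 3.

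**Figure D2:**
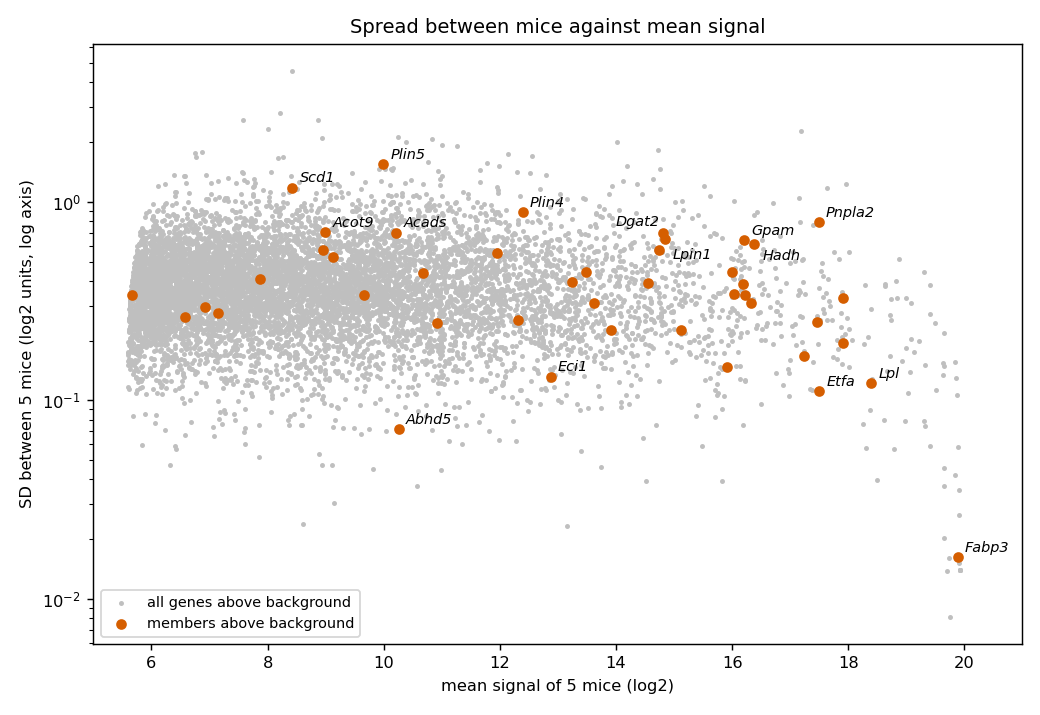
SD between the 5 mice (log2 units, logarithmic vertical axis) against mean signal (log2, horizontal axis) for the 8482 genes above background (grey) and the 44 members among them (orange). *Plin5* at an SD of 1.55 and *Scd1* at 1.18 lie near the top, and *Fabp3* lies at the lower right, where signals approach the highest value of the array.

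As a whole, the called members varied about as much between mice as genes in general, with some at either end. Their median SD was 0.34, against 0.36 over all called genes. In 7 of the 44 (15.9%) the SD lay above the 90th percentile of all called genes, 0.655, and in another 7 it lay below the 10th percentile, 0.19. The upper 7 were *Plin5*, *Scd1*, *Plin4*, *Pnpla2*, *Acot9*, *Acads* and *Dgat2*, and the lower 7 *Fabp3*, *Abhd5*, *Etfa*, *Lpl*, *Eci1*, *Acot13* and *Acaa2*. Some of the upper SDs rested on 1 mouse. They were 0.18 for *Pnpla2* and 0.61 for *Plin4* without mouse 16, and 0.27 for *Acot9* and 0.31 for *Acads* without mouse 14. *Plin5*, *Scd1* and *Dgat2* stayed above 0.655 without either of these mice. Droplet coat genes had a median SD of 0.89 over 3 called genes and triglyceride synthesis genes 0.65 over 4, while the β-oxidation spiral had 0.32 over 10 and the uptake genes 0.30 over 5.

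*Plin5* and *Plin4*, the pair of coat genes with the largest SDs, lie on the same strand of chromosome 17, their starts 7516 or 7766 bases apart for the 2 *Plin5* starts, and *Pnpla2* lies on chromosome 7. Their RefSeq promoter windows (GRCm38.p6) are shown because these 3 genes and *Lpin1* had their lowest signal in mouse 16 and large ranges. Other members met this too and are not shown, among them *Hadh*, *Lipe* and *Mlycd* with ranges of 1.54, 1.49 and 1.45. AGGTCA was searched on both strands and is printed in capitals. It was found in 12 of the 39 members that had a window, or 13 of 50 windows (26.0%), against 16.3% of all 32851 windows of that length. The windows also differed in composition, with a median G and C content of 60.7% in members and 52.7% in all windows. The difference in shares was not tested. The direct repeat AGGNCANAGGNCA, a form of the PPAR response element with a pair of half-sites 1 base apart, each of which may be AGGTCA, was found in 0 of the 50 windows and in 0.381% of all windows, and TCAAGGTCA, the extended ERR site that also contains it, in 1 (*Acsl6*), against 0.423% of all windows. *Plin5* has 2 windows, each with 1 AGGTCA. The window shown, of the start farther from *Plin4*, chr17:56117499-56117798 on the minus strand, has it 170 bases before the start, and the other has it 13 bases after its own start. The *Lpin1* window, chr12:16610917-16611216 on the minus strand, has 1 AGGTCA that begins 74 bases before the start. The *Plin4* window, chr17:56109733-56110032 on the minus strand, and the *Pnpla2* window, chr7:141454938-141455237 on the plus strand, have none. A match of letters is a description and not a binding site.
Plin5: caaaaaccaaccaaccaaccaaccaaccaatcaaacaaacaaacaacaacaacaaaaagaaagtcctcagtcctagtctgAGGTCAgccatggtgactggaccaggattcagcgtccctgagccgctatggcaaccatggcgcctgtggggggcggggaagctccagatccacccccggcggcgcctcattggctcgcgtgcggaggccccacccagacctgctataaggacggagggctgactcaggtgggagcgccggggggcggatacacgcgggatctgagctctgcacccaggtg
Plin4: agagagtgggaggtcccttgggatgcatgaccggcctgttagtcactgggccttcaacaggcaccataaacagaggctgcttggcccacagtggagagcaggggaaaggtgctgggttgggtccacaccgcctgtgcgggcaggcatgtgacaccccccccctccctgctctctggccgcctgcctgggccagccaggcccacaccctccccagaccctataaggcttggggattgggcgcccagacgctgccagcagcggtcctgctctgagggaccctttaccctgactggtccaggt
Pnpla2: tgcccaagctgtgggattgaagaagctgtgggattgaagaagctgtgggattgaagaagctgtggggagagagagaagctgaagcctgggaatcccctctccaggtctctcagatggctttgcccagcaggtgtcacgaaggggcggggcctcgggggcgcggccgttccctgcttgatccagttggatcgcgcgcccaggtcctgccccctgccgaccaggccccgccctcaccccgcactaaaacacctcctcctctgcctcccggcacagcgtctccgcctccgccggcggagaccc
Lpin1: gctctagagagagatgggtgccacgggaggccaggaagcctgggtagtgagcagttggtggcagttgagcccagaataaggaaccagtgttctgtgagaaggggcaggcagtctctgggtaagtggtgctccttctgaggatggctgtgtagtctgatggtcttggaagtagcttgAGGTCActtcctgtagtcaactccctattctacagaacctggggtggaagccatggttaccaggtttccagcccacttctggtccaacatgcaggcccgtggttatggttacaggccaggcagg

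Triglyceride synthesis was represented by 4 called genes of 6. *Gpam*, the mitochondrial glycerol-3-phosphate acyltransferase of the first step, read 16.64, 16.34, 15.43, 16.95 and 15.68, with mouse 14 highest and mice 11 and 16 lowest. *Lpin1*, the phosphatidate phosphatase of muscle and fat, had 15.14, 15.47, 14.75, 15.11 and 13.78, mouse 16 being 0.97 below the next, and its SD of 0.65 was 0.30 without mouse 16. *Dgat2*, an acyltransferase of the last step, read 15.54, 15.58, 14.18, 14.33 and 14.40, and its mice fell into 1 and 3 above and 11, 14 and 16 below, with 1.15 log2 units between them. *Agpat1*, the acyltransferase of the second step, had 10.92 ± 0.25 (SD, n = 5). The other last-step gene, *Dgat1*, read 5.58, 5.42, 6.18, 5.17 and 5.72, above the cutoff in 4 of 5 mice, and was not called at a distance of 0.34 (limma adjusted p = 0.0725, standard error 0.16), although it was without mouse 14 (limma adjusted p = 0.0287, and between 0.00432 and 0.586 over 14 alternatives). *Lpin2*, a lipin of liver, read 4.51, 4.28, 4.64, 5.01 and 4.14 and lay below the cutoff in every mouse.

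Both acyl-CoA thioesterase genes of the list were called. *Acot13*, which encodes a mitochondria-associated thioesterase, had 15.88, 16.07, 15.80, 16.04 and 15.73, an SD larger than that of 5.22% of called genes. *Acot9*, a matrix enzyme, read 9.33, 9.57, 8.91, 7.81 and 9.34, with mouse 14 lowest by 1.10, and its SD of 0.70 was 0.27 without mouse 14. Among lipogenic genes, *Scd1*, the Δ9 desaturase that makes monounsaturated fatty acids, read 8.65, 8.79, 7.22, 7.38 and 10.10. Mouse 16 was highest, mice 1 and 3 lay between, and mice 11 and 14 were lowest, a range of 2.88 log2 units or 7.36-fold (2.97-fold without mouse 16). Without mouse 16 the SD of 1.18 was 0.83. *Fasn*, fatty acid synthase, read 5.57, 5.39, 5.40, 5.72 and 6.21, just above the cutoff in every mouse and highest in mouse 16. It was called (0.38 over the cutoff, limma adjusted p = 0.0409, standard error 0.16), and the call was lost without mouse 1 (adjusted p = 0.0595), without mouse 14 (0.0788) and without mouse 16 (0.165, all from limma). Over 14 alternatives, the limma adjusted p of *Fasn* ran between 0.00203 and 0.405.

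*Scd1*, *Fasn* and *Plin1*, all abundant in fat, had their highest signal in mouse 16, so adipocyte markers were read beside them. *Adipoq*, the adipocyte hormone adiponectin, read 5.75, 5.25, 4.98, 4.85 and 6.14, also highest in mouse 16. Of the 5 mice, 1 and 16 had it over the cutoff, and it was not called (limma adjusted p = 0.577). Of 11 measured adipocyte markers, 5 were called (45.5%, against 43.5% of all genes), namely *Car3*, *Fabp4*, *Lipe*, *Cidec* and *Cidea*, of which *Lipe* is a member here and *Car3* is also a gene of slow muscle. Of these 5, *Car3* was highest in mouse 16, *Cidec* in mouse 1, *Cidea* in mouse 11, and *Lipe* and *Fabp4* in mouse 14. *Lipe* was lowest in mouse 16. *Fabp4*, the adipocyte binding protein, which capillary endothelium also expresses, read 11.43, 11.52, 9.70, 11.55 and 10.70, highest in mouse 14. *Lep*, *Retn* and *Trarg1* were under the cutoff in all 5 mice. The mean log2 signal of the list was between 7.21 in mouse 3 and 7.50 in mouse 1, with 7.44 in mouse 16. The part of RNA from other cells in these signals was not tested, and fewer cells of a type and less RNA per cell cannot be told apart in a pulldown from whole muscle.

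Across roles, mouse 16 had the lowest signal in 24 of the 44 called members (54.5%), against 20% of all 8482 called genes. Its median deviation from the mean of the 5 mice was -0.26 over the called members and 0.0057 over all called genes, and the difference between these shares was not tested. The 24 members include *Fabp3*, read near the highest value of the array, and near ties. *Acadl* and *Acacb* in mouse 16 lay 0.011 below the next mouse, where *Pnpla2* lay 1.47 below it. Mouse 16 also had the highest *Rpl22* and *Myog* signals and, like mouse 1, Y-linked genes at background, and their part in the low members was not tested. Mouse 16 lay above the 5-mouse mean in 7 of 44 members, and mouse 14 in 30. Mouse 14 was the highest in 15 members (34.1%), against 26.7% of all called genes. In the β-oxidation spiral, the highest signal was in mouse 14 for 7 genes and in mouse 11 for the other 3, and the lowest in mouse 16 for 6 and in mouse 1 for 4. All 10 spiral genes lay above their own mean in mouse 14 and all 10 below it in mouse 1. Mice 1 and 16, which between them held the lowest signal in all 10, had Y-linked genes within the range of background. The part of this split in the spiral signals was not tested.

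**Figure D3:**
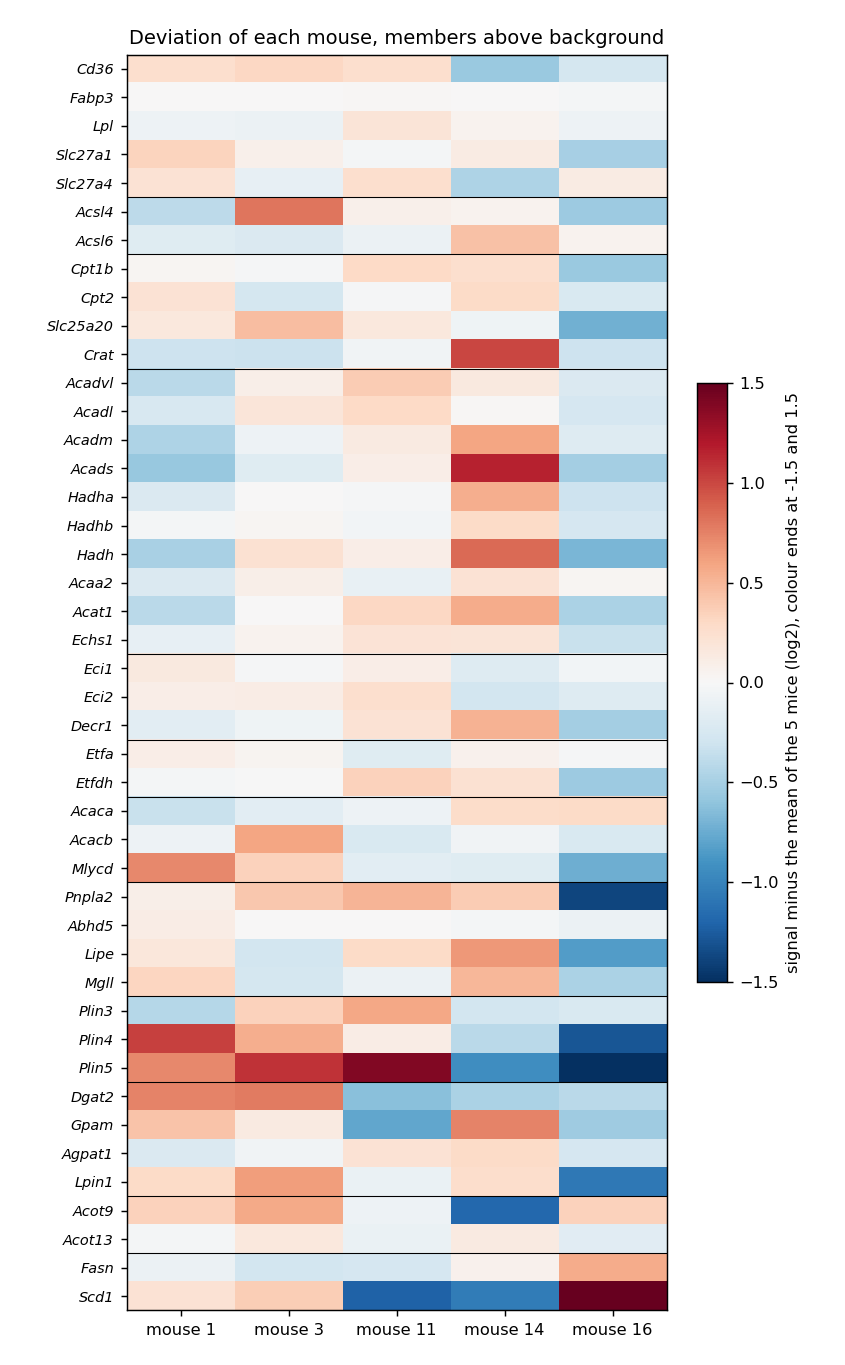
Signal minus the mean of the 5 mice (log2, colour scale, where deviations past either end share the end colour) for the 44 members above background (rows, in the order of roles, separated by lines) in each mouse (columns). Mouse 16 has the lowest signal in 24 of the 44, with *Plin5* and *Pnpla2* furthest below their means, while mouse 14 is highest in 7 of the 10 β-oxidation genes, among them *Acads* and *Hadh*.

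Slow fiber markers also moved with mouse 14, which was lowest in 8 of the 9, while the 10 fast markers were mixed, with mouse 14 highest in 3 and lowest in 2. The fast IIb myosin heavy chain gene *Myh4* read 16.72, 18.44, 17.69, 19.83 and 17.10, and *Pvalb*, the calcium buffer of fast fibers, 14.44, 15.95, 14.35, 16.31 and 14.69, both highest in mouse 14, as was *Myh1*. *Casq1*, the fast calsequestrin, read 17.47, 17.96, 17.56, 17.08 and 17.78, lowest in mouse 14 like *Mylpf*, a fast myosin light chain gene (both named after their values had been seen). *Casq2*, the slow calsequestrin, read 15.74, 15.72, 15.71, 14.52 and 16.38, also lowest in mouse 14. The mean log2 signal of the 10 fast markers lay between 18.35 in mouse 1 and 18.93 in mouse 14, and that of the 9 slow markers between 18.78 in mouse 14 and 19.29 in mouse 16, although several of these genes read close to the highest value of the array. The part of fiber composition in the signals of *Acads*, *Hadh* and *Crat* was not tested.

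Regulators of fatty acid genes were nearly all above background, 20 of 21 measured (95.2%), and several varied with mouse 16 lowest. *Ppargc1a*, the coactivator PGC-1α that drives mitochondrial and fatty acid oxidation genes, read 15.73, 16.11, 13.22, 13.88 and 11.17, a 30.7-fold range with mouse 3 highest and mouse 16 lowest, or 7.38-fold without mouse 16. *Ppara*, the nuclear receptor that fatty acids activate, read 10.36, 9.77, 9.72, 10.31 and 8.20, and *Klf15*, a fasting- and glucocorticoid-linked factor of muscle lipid use, 10.82, 11.02, 11.39, 10.24 and 9.52, both lowest in mouse 16 (these 2 genes were named after their values had been seen). *Esrrg*, the estrogen-related receptor of oxidative muscle, had 12.44, 12.57, 10.56, 11.74 and 10.98 and *Mlxipl*, the carbohydrate response factor ChREBP, 10.61, 11.33, 11.62, 12.07 and 11.08. *Esrrg* was lowest in mouse 11 and *Mlxipl* in mouse 1, so not all regulators followed the same order. *Pparg*, the adipocyte receptor, was the regulator not called, at 5.51 ± 0.15 (SD, n = 5, limma adjusted p = 0.124), although it lay over the cutoff in all 5 mice.

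*Pdk4* and *Ucp3*, which fasting and fatty acids are known to induce in muscle, had larger SDs over the 5 mice than any called member. Without mouse 16 the SD was 0.92 for *Pdk4* and 1.19 for *Ucp3*, against 1.03 for *Plin5*, so that for *Pdk4* this order rested on mouse 16. *Pdk4*, the kinase that shuts off pyruvate dehydrogenase, read 18.85, 18.90, 17.85, 16.96 and 13.37, a range of 5.53 log2 units (46.2-fold), or 1.94 (3.84-fold) without mouse 16. *Ucp3*, the muscle uncoupling protein, read 13.71, 14.57, 12.04, 12.34 and 10.12, and *Angptl4*, the fasting-induced inhibitor of lipoprotein lipase, 8.29, 8.53, 6.20, 5.64 and 6.05. Mouse 3 was the highest in each of the 3 genes and mouse 16 the lowest in *Pdk4* and *Ucp3*, while *Angptl4* was lowest in mouse 14. The thioesterase genes *Acot2*, of the matrix, with 13.46, 13.95, 13.11, 12.99 and 10.44, and *Acot1*, of the cytosol, with 8.78, 8.98, 7.91, 6.35 and 5.90, were chosen after their values had been seen. Both were highest in mouse 3 and lowest in mouse 16. *Acot9* and *Acot13*, the thioesterase genes among the members, were both highest in mouse 3 too, with *Acot9* lowest in mouse 14 and *Acot13* in mouse 16. *Plin5*, *Plin4*, *Pnpla2* and *Lpin1* shared their lowest mouse with *Pdk4* and *Ucp3*, and *Lpin1* also its highest, whereas the highest was mouse 11 for *Plin5* and *Pnpla2* and mouse 1 for *Plin4*.

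**Figure D4:**
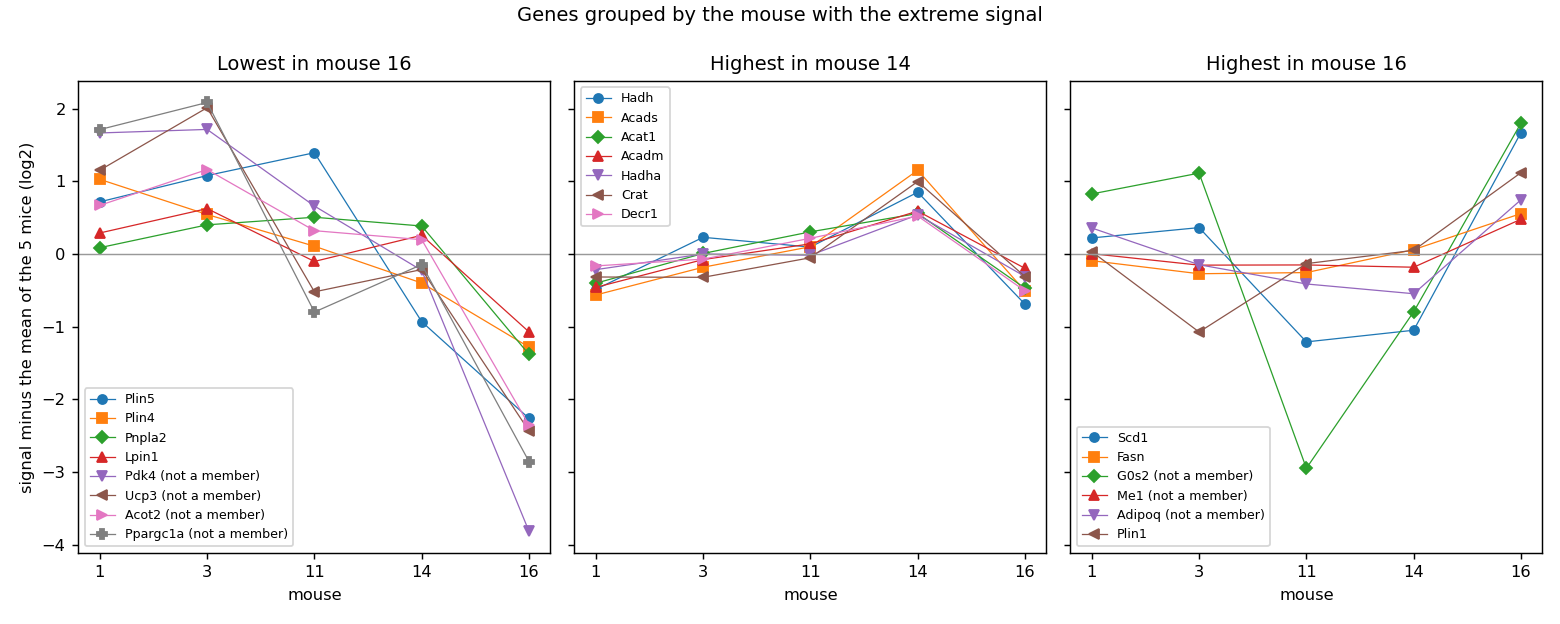
Signal minus the mean of the 5 mice (log2, vertical axis) in each mouse (horizontal axis) for genes lowest in mouse 16, highest in mouse 14 or highest in mouse 16, chosen after their values had been seen, with thin lines joining the points of a gene across mice that have no order. The left panel spans 5.53 log2 units for *Pdk4* and 3.66 for *Plin5*, the middle panel 1.72 for *Acads*, and the right panel 4.75 for *G0s2* and 2.88 for *Scd1*.

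The remaining pathway lists placed the members among their neighbours. Over 7 lists of other fatty acid genes, 85 of 119 measured genes (71.4%) were called, against 43.5% of all genes. Of uptake, binding and lipase control genes outside the members, 11 of 22 were called (50%, near the share of all genes). Among them were *Got2*, the mitochondrial aspartate aminotransferase also described as a fatty acid binding protein, at 18.28 ± 0.38, *Dbi*, the acyl-CoA binding protein, at 15.38 ± 0.16, and *Acss1*, the mitochondrial acetyl-CoA synthetase, at 13.04 ± 0.57 (SD, n = 5 each). Of other mitochondrial oxidation genes, 18 of 20 were called, with *Ech1*, a dienoyl-CoA isomerase, at 16.48 ± 0.28 and *Pdk2* at 17.76 ± 0.56 (SD, n = 5 each). Droplet and triglyceride genes outside the members numbered 15 called of 23 (65.2%), with *Agpat3* at 15.37 ± 0.62, *Hacd1*, a dehydratase of very long-chain fatty acid synthesis, at 13.36 ± 0.71 and *Fitm1*, a muscle gene of droplet formation, at 11.84 ± 0.11 (SD, n = 5 each). *Lpcat3*, which puts polyunsaturated chains into phospholipids, varied most there after *G0s2*, with 11.12, 11.81, 11.99, 11.48 and 9.80 and mouse 16 lowest, but its SD was 0.39 without mouse 16. Lipogenesis outside the members was the list with the smallest share, 3 of 12 (25%), namely *Me1*, malic enzyme, at 11.26 ± 0.28, *Acly*, ATP citrate lyase, at 7.33 ± 0.38 and *Thrsp* at 6.40 ± 0.34 (SD, n = 5 each).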

How the data were processed

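The authors deposited log2 signals of 22206 probe sets from 5 Affymetrix mouse Clariom S arrays, made in Transcriptome Analysis Console 4.0 in its default configuration, a version the submitters' processing notes also name. Which summarization algorithm and build were used is not given in the sources used here, and no probe set coordinates are printed. GEO's platform annotation named a single gene for 19572 probe sets, several for 0 and no gene for 2634. Genes with more than 1 probe set, 55 by coincidence, were given the mean of their probe sets, leaving 19505 genes. Precision is limited by the number of arrays, which have no read depth.

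From every signal the 95th percentile of the odorant receptor genes on its array was taken off, and limma 3.58.1 (R 4.3.3) tested the difference from 0. The test called 9 of 1091 odorant receptor, 5 of 321 vomeronasal receptor and 6 of 89 other genes (beta-defensins and keratin-associated proteins). The odorant receptor genes set the cutoff themselves, so their low count was fixed in advance and is no check of the test. On simulated data over 19505 genes, this test, out of 200 genes at each distance from the cutoff, called 7 at 0, 150 at 0.5, 191 at 1 and 200 at 2 log2 units. The p-values rest on 5 mice of 1 group and take each array's cutoff as fixed. They do not measure only a gene's own spread, because limma draws its variance towards that of all genes. For *Fabp3*, with an SD of 0.016, the standard error was 0.13. Members, lists and rules were chosen with earlier results of these data known. All members are named. The members described with values were the 3 highest means and the uncalled genes of each role, the 10 largest SDs and those in which 1 mouse stood apart (Dixon's ratio over 0.71). Of the other lists, the 3 highest means and 2 largest SDs were named, many as a mean and SD, and called markers with a mouse apart by that ratio. Outside the named genes, the uncalled markers *Cldn5* and *Myh11* and the pathway genes *Acot7*, *Ivd* and *Slc22a5* also had a ratio over 0.71. A mouse apart is a highest or lowest sample whose gap to the next, over the whole range, exceeds that value. The alternatives were other background sets and percentiles, another prior, a second quantile normalization, the brightest probe set per gene, leaving dim genes out, calls without a model, and omission of each mouse in turn. The fit on mice 3, 11 and 14 alone was chosen after seeing the data. Promoter windows are RefSeq's (GRCm38.p6), matched by symbol. Plots were drawn with matplotlib 3.10.9, from tables built with pandas 2.3.3 and numpy 2.4.6 in Python 3.11.15.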

Additional observations from a re-analysis of the deposited data

Results flagged for a closer look

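A mouse lay apart from the other 4 in 4 of 50 members, where chance gives about 2.5 (1 in 20), and in 475 of all 8482 called genes, where it gives about 424.1. The gap over the whole range was 0.796 for *Crat*, with mouse 14 highest, 0.778 for *Pnpla2*, with mouse 16 lowest, 0.773 for *Acacb*, with mouse 3 highest, and 0.73 for *Fabp3*, with mouse 16 lowest. For *Fabp3*, mouse 16 read 0.03 below the next mouse, and the highest value of its array was 0.03 below that of the other 4 arrays, so this gap is no larger than the difference in array ceilings. Among 77 named genes outside the members, 9 were apart, where chance gives about 3.85. These 77 genes were picked partly by their mean, SD or call, and some, *Acot2* among them, after their values had been seen. The share of 1 in 20 assumes no such choice, so no conclusion is drawn from their counts. Leaving out genes within 0.1 of the highest signal of an array in any mouse, a count added after seeing the data, 3 of 49 members and 4 of the other 68 genes were apart, where chance gives about 2.45 and 3.4. *Acot2* had a ratio of 0.725, with mouse 16 lowest, and *Me1* of 0.718, with mouse 16 highest. The other 7 were fiber markers, with ratios of 0.874 for *Myl2*, 0.851 for *Atp2a2*, 0.836 for *Tnnc1* and 0.767 for *Tnnt1*, each with mouse 14 lowest, 0.835 for *Myl3*, with mouse 11 highest, and 1 for *Myh2* and 1 for *Atp2a1*, with mouse 16 lowest and 4 equal signals. *Myh2* and *Atp2a1* equalled their array's maximum signal on all 5 arrays, which fixed that ratio, and *Myl2*, *Tnnc1* and *Tnnt1* were within 0.1 of it in at least 1 mouse. *Myl3* read an equal 18.2246 in mice 1, 3 and 14 and 18.1932 in mouse 16, so its ratio also rests on equal signals. It is among the 4 of 68 genes counted as apart.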

How the results depend on the processing

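The number of members called, 44 of 50, was between 43 and 45 under every alternative run, and between 43 and 44 with a mouse left out. The other pathway genes called, 85 of 119, numbered between 82 and 90, and between 85 and 86 with a mouse left out. Of the 50 members, 48 kept the direction and side of their call throughout. The exceptions were *Fasn*, at -0.17 with beta-defensin and keratin-associated protein genes as background and -0.16 at the 99th percentile, and *Dgat1*, at -0.22 and -0.20 under the same settings and called at the 90th percentile (0.61, limma adjusted p = 0.00432, with a range between 0.00432 and 0.586 over 14 alternatives). Among named markers, *Chodl* of satellite cells was at -0.19 and -0.18 under those settings, and the calls of *Flt1*, *Pecam1*, *Tek*, *Col1a1* and *Cspg4* were lost under both. The SD between mice moved by more than 1.5 times in 21 of 44 called members when a mouse was left out, in 8 of them for mouse 14 and in 8 for mouse 16. No paired analysis was possible because the series holds 1 group. Background correction, scan and slide could not be varied, since the table holds summarized signals. Probe sets near the array's highest value, *Fabp3* among them, bound any difference between mice from above.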

Other observations

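Peroxisomes shorten very long and branched chains before mitochondria take over, and 15 of 16 measured peroxisomal genes were above background (93.8%). *Phyh*, an enzyme of phytanic acid breakdown, read 14.64, 15.74, 15.49, 15.92 and 15.14, highest in mouse 14. *Hsd17b4*, the multifunctional enzyme of branched chains, had 12.59 ± 0.26 and *Abcd3*, a fatty acid transporter of the peroxisomal membrane, 12.47 ± 0.38 (SD, n = 5 each). *Slc25a17*, the peroxisomal cofactor carrier, varied most, with 8.83, 9.45, 9.52, 7.93 and 7.49 and mouse 16 lowest, although without mouse 16 its SD was 0.74, against 0.79 for *Ehhadh*. *Ehhadh*, the bifunctional enzyme that PPARα is known to induce in liver, read 9.35, 10.29, 8.36, 9.20 and 8.43, with mouse 3 highest.

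Ketone body use was read in 3 called genes of 5 measured (60%, against 43.5% of all genes). *Oxct1*, the enzyme that activates acetoacetate in tissues other than liver, read 15.69, 16.32, 15.97, 16.69 and 15.56, highest in mouse 14 and lowest in mouse 16. *Bdh1*, hydroxybutyrate dehydrogenase, had 13.31, 14.55, 14.90, 14.36 and 13.13, with mice 1 and 16 at least 1.05 log2 units below the other 3. Y-linked *Eif2s3y* read within the range of background in the same mice 1 and 16, and the part of this split was not tested. *Slc16a1*, the monocarboxylate transporter MCT1, had 13.36 ± 0.44 (SD, n = 5). *Acat1*, the thiolase that follows *Oxct1* in ketone use and belongs to the fatty acid list, had the same highest and lowest mouse, with 16.56 in mouse 14 and 15.54 in mouse 16.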
